A study of Mus musculus with 15 samples.

Results

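The miR-132 and miR-212 cluster comprises 4 mature microRNAs (miRNAs), mmu-miR-132-3p, mmu-miR-132-5p, mmu-miR-212-3p and mmu-miR-212-5p, which are the 3p and 5p arms of the neighbouring hairpins Mir132 and Mir212. The species prefix is left out from here on. The members were chosen by name, and all 4 were present among the 248 mature miRNAs measured. The data are 15 small RNA libraries of Kupffer cells, macrophages that reside in the mouse liver. Cells of ob/ob mice, obese for want of functional leptin, gave 3 libraries at 9 weeks of age and 4 libraries at 14 weeks. Cells of C57BL/6J mice (wt) gave 4 libraries at 9 weeks and 4 libraries at 14 weeks. No treatment is named for any group. The strain background of the ob/ob mice and the way the cells were isolated could not be taken from the sources used here, and ob/ob animals carry their mutation in every tissue. The study is about obesity, insulin resistance and the antioxidant response of the liver, and ob/ob was set against wt at either age.

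The hairpins are transcribed together as 1 primary transcript under the control of CREB, the cyclic-AMP-responsive transcription factor, and each is cut by Drosha and Dicer into a 5p and a 3p arm. One arm of a hairpin is usually loaded into Argonaute as the guide, and the other is mostly discarded. The cluster is best known from neurons, where activity and BDNF induce it. In macrophages and other immune cells miR-132 is induced by bacterial lipopolysaccharide, and in mice it represses the mRNA of acetylcholinesterase, the enzyme that breaks down acetylcholine.

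The sequences below are shown because the 3p arms share a seed, the bases that pair with target mRNAs, while the 5p arms do not. They are from RefSeq on GRCm38.p6, written 5′ to 3′, and the capitals mark the seed, bases 2 to 8.
miR-132-3p: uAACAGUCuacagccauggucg
miR-212-3p: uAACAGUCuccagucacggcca
miR-132-5p: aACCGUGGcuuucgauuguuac
miR-212-5p: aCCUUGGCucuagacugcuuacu
The 3p arms had the same seed, AACAGUC, were identical over their leading 9 bases and matched at 17 of 22 positions. No other mature miRNA of the RefSeq table carried this seed. The 5p arms matched at 9 of 22 positions compared and each had a seed of its own. Positions were compared from the first base of either arm without shift or gap. Likeness in a shifted register was thus not counted, and the 9 of 22 can understate how alike the 5p arms are. Each mature sequence was found at 1 locus, so no second copy of a hairpin is annotated there.

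The hairpins are printed to show where the arms lie, with the mature arms in capitals, the 5p arm before the 3p arm.
Mir212: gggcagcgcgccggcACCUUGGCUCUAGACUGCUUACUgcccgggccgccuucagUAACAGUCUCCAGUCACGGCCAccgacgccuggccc
Mir132: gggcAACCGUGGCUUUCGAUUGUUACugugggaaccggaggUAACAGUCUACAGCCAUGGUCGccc
Mir212 lies at chr11:75173388-75173478 and Mir132 at chr11:75173682-75173747, both on the plus strand of GRCm38, with 203 bases between them. In GENCODE vM21 both are in intron 1 of the noncoding host gene 1700016P03Rik, which has 1 annotated transcript of 3 exons. Neither hairpin overlaps an exon of the host.

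The values are RPM (reads per 1000000 reads) from 1 table per age. The depth implied by the smallest step between values was 25.9 to 33.9 M reads (M, 1000000) in ob/ob and 13.4 to 22.8 M in wt at 9 weeks. It was 44.0 to 98.1 M in ob/ob and 9.08 to 39.0 M in wt at 14 weeks, so ob/ob libraries were deeper at both ages. The 248 miRNAs summed to 230785 to 250422 RPM in ob/ob and 297668 to 358621 RPM in wt at 9 weeks, with no overlap. At 14 weeks the sums were 272978 to 333502 RPM in ob/ob and 147387 to 353829 RPM in wt, where wt replicate 1 was the lowest. The labels leave it unsaid whether replicates were separate animals. The p-values therefore gauge only how far these samples spread, which may be technical. The myeloid markers fixed for this work (3 of 5 listed, miR-142a-3p, miR-142a-5p and miR-511-3p) summed to 2139 to 3272 RPM in ob/ob and 3144 to 4465 RPM in wt at 9 weeks, and to 2386 to 4026 and 1833 to 2917 RPM at 14 weeks. Most of these sums was miR-142a-5p. Of the neuronal markers, 0 of 4 were among the miRNAs analysed here.

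Before the comparisons, 4 libraries must be set apart for miR-212. In 11 libraries miR-212-3p exceeded miR-212-5p by 8.60 to 14.4 times. In the other 4 libraries the order was the opposite, and miR-212-5p exceeded miR-212-3p by 3.37 to 4.94 times. These were ob/ob replicate 1 and wt replicate 1 of 9 weeks, and ob/ob replicate 2 and wt replicate 1 of 14 weeks. At 9 weeks ob/ob replicate 1 held 3.90 RPM of the 3p arm and 14.5 RPM of the 5p arm, and wt replicate 1 held 7.24 and 31.0 RPM. At 14 weeks ob/ob replicate 2 held 5.78 RPM of the 3p arm and 19.5 RPM of the 5p arm, and wt replicate 1 held 1.87 and 9.25 RPM. No library lay between the 2 orders, as the plot of the arms of miR-212 shows.

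**Figure D1:**
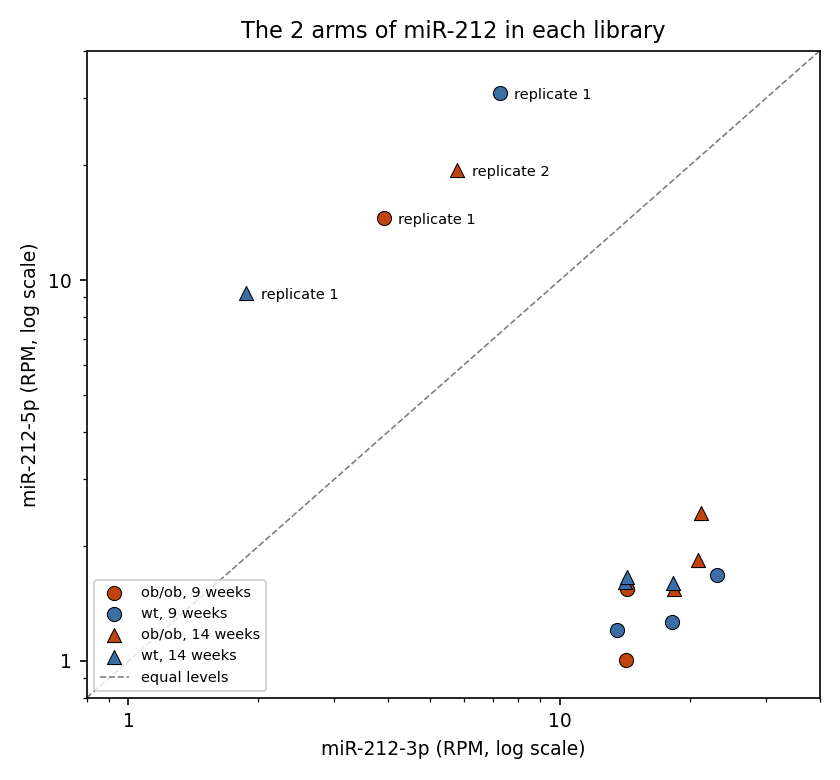
Level of miR-212-5p against miR-212-3p in each of the 15 libraries, in RPM on log axes; the dashed line marks equal levels, and replicates are named where the 5p arm is higher. The 4 libraries above the line have ratios of 3.37 to 4.94 in favour of the 5p arm, and the 11 below it have ratios of 8.60 to 14.4 in favour of the 3p arm.

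The 4 libraries held both genotypes and both ages, 2 were in lane 1 and 2 in lane 2, and their implied depths spanned 9.08 to 98.1 M reads. Read numbers of a single arm in them ran from about 17 to about 1908, so the opposite order was seen at low and at high read numbers. Both arms together came to 11.1 to 38.2 RPM in these 4 libraries and to 14.8 to 24.8 RPM in the other 11. Of 70 hairpins with both arms listed, 4 had libraries with an at least 2-fold excess of either arm, miR-212, miR-151, miR-505 and miR-3098, a count made after the values were seen. Of the 17 hairpins with both arms at 1 RPM or more in every library, miR-212 alone did. What lies behind the 2 orders was not tested. The fold changes and interactions of miR-212 as deposited, and most of its ratios, are given with and without these libraries.

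miR-132-3p was the most abundant member in all 15 libraries. It ranked 47th to 73rd of the 248 miRNAs and made up 61.2% to 83.4% of the reads of the 4 members. Its mean level stood between those of miR-140-3p and miR-125b-5p at 9 weeks and between those of miR-335-5p and miR-339-5p at 14 weeks. miR-132-5p ranked 93rd to 106th, at 9.76 to 29.2 RPM. The arms of miR-212 ranked 90th to 134th (3p) and 90th to 169th (5p), and the lowest read number of either was about 17. No member was listed at 0 in any library.

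At 9 weeks miR-132-3p, the guide arm known for the cluster's immune and neuronal roles, was lower in ob/ob Kupffer cells. It was at 89.9, 134.9 and 67.4 RPM in ob/ob replicates 1 to 3, against 228.2, 196.8, 146.3 and 162.1 RPM in wt replicates 1 to 4. Every ob/ob library was below every wt library. Such a separation with ob/ob lower was common at this age, at 41.3% of the 179 miRNAs tested. The means were 97.4 ± 34.4 RPM in ob/ob (SD, n = 3) and 183.3 ± 36.6 RPM in wt (n = 4). On the log2 scale miR-132-3p fell, at -0.95 ± 0.27 (SE) and a limma adjusted p of 0.0256. In such bulk samples fewer cells of a type and less RNA per cell cannot be told apart.

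The fall of miR-132-3p was read against the whole table, where 32.4% of the miRNAs tested were called lower and the median log2 fold change was -0.51. After median-ratio rescaling, which sets that median near 0, the log2 fold change of miR-132-3p was -0.44 ± 0.23 and the call ended (adjusted p = 0.201). As deposited the call also ended without ob/ob replicate 1 (adjusted p = 0.0763) or 3 (0.0743), or without wt replicate 1 (0.0671) or 2 (0.0678). Without the 2 libraries of the opposite miR-212 order it ended as well (log2 fold change -0.81 ± 0.35, adjusted p = 0.146).

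miR-132-5p, the other arm of the same hairpin, was at 12.6, 15.5 and 9.76 RPM in ob/ob and at 29.2, 19.7, 15.5 and 14.4 RPM in wt at 9 weeks. The groups overlapped, with ob/ob replicate 2 above wt replicate 4 and just below wt replicate 3. Its log2 fold change of -0.59 ± 0.30 did not pass (limma adjusted p = 0.140), and its 95% interval ran from -1.27 to 0.09. After rescaling it was -0.10 ± 0.25 (adjusted p = 0.803).

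miR-212-3p, which shares the seed of miR-132-3p, was at 3.90, 14.3 and 14.2 RPM in ob/ob and at 7.24, 18.2, 13.6 and 23.1 RPM in wt at 9 weeks. In each genotype replicate 1, of the opposite arm order, was the lowest. Its log2 fold change was -0.58 ± 0.54 (limma adjusted p = 0.418) with all libraries and -0.31 ± 0.32 (adjusted p = 0.492) without those 2. It was -0.0027 without ob/ob replicate 1 alone and -0.90 without wt replicate 1 alone. miR-212-5p was at 14.5, 1.55 and 1.003 RPM in ob/ob and at 31.0, 1.27, 1.21 and 1.68 RPM in wt. Its log2 fold change of -0.08 ± 1.38 (adjusted p = 0.972) had a 95% interval from -3.49 to 3.33, too wide to place the level of ob/ob above or below that of wt. Without those 2 libraries it was -0.10 ± 0.33 (adjusted p = 0.855). Of the 4 members 1 was called at 9 weeks as deposited, where 37.4% of the miRNAs tested were called in either direction, and 0 after rescaling, where 21.5% were (limma). At 9 weeks as deposited the median log2 fold change of the members was -0.59 beside -0.51 for all miRNAs tested.

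**Figure D2:**
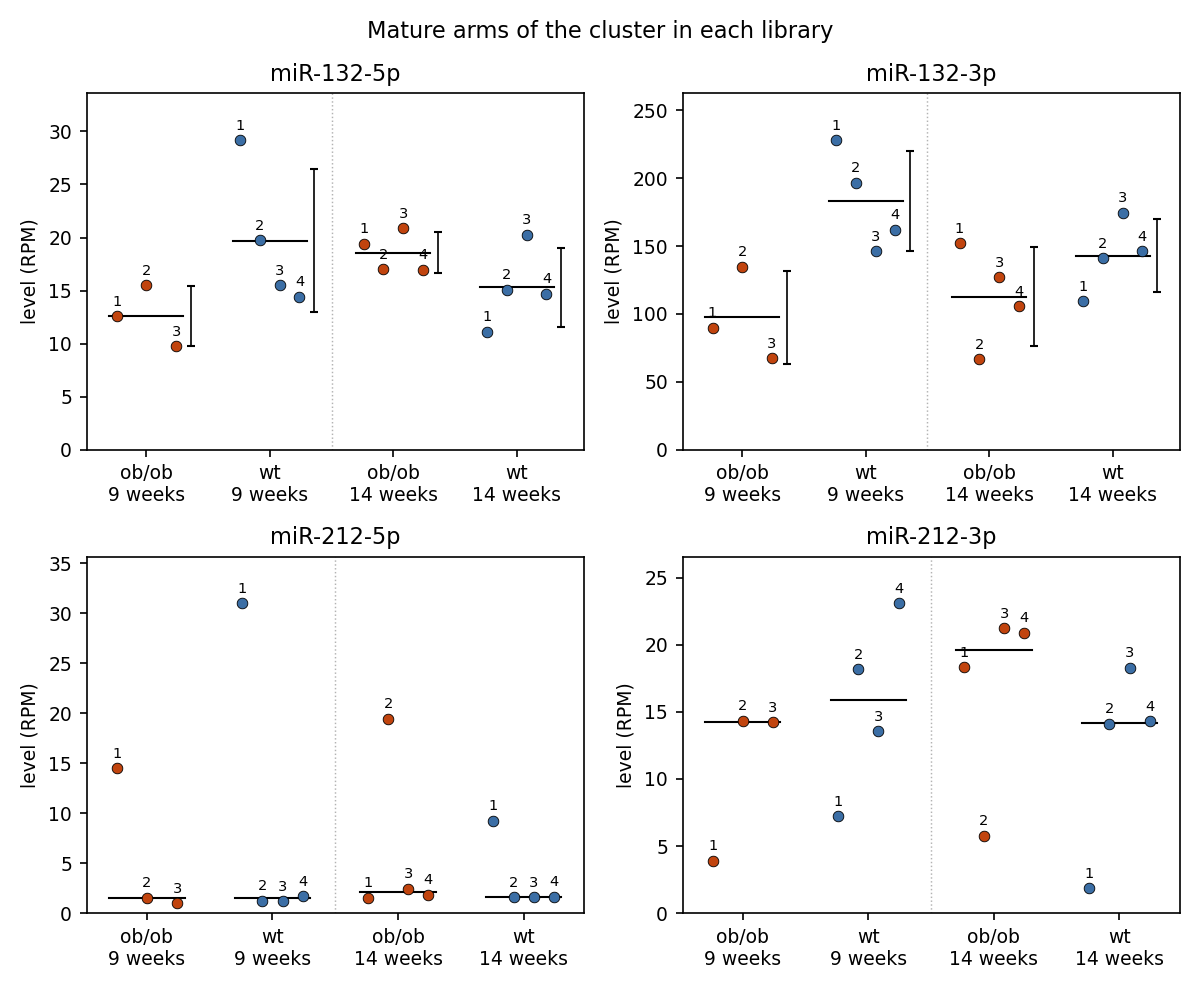
Level in RPM of the 4 mature arms in each library, by genotype and age; numbers are replicates. For miR-132 the line is the mean and the bar its SD, and for miR-212 the line is the median. At 9 weeks the 3 ob/ob libraries lie between 67.4 and 134.9 RPM for miR-132-3p and the 4 wt libraries between 146.3 and 228.2 RPM, while single libraries stand far from the rest for both arms of miR-212.

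At 14 weeks none of the 4 members passed the test as deposited or after rescaling (limma), beside 15.2% of 171 miRNAs called as deposited and 28.6% of 168 after rescaling. miR-132-3p was at 152.2, 66.6, 127.1 and 105.5 RPM in ob/ob replicates 1 to 4 and at 109.5, 141.3, 174.6 and 146.4 RPM in wt. The groups overlapped, since ob/ob replicate 1 exceeded wt replicates 1, 2 and 4. In addition, ob/ob replicate 3 exceeded wt replicate 1, the library with the lowest total. The means were 112.9 ± 36.3 RPM in ob/ob and 142.9 ± 26.7 RPM in wt (SD, n = 4 each). The log2 fold change was -0.38 ± 0.31 as deposited (adjusted p = 0.448) and -0.60 ± 0.28 after rescaling (adjusted p = 0.150). It was nearer to 0 without ob/ob replicate 2, at -0.15 (adjusted p = 0.835), than without any other library. Within lane 1, with 2 libraries of each genotype, it was -0.30, and within lane 2 -0.46.

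miR-132-5p was at 19.4, 17.0, 20.9 and 16.9 RPM in ob/ob and at 11.1, 15.1, 20.3 and 14.7 RPM in wt at 14 weeks. The ob/ob libraries were above 3 of the 4 wt libraries and on both sides of wt replicate 3. The log2 fold change was 0.30 ± 0.25 (limma adjusted p = 0.468), with a 95% interval from -0.26 to 0.85, and 0.09 ± 0.20 after rescaling (adjusted p = 0.777).

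For miR-212-3p the levels at 14 weeks were 18.3, 5.78, 21.3 and 20.9 RPM in ob/ob and 1.87, 14.1, 18.3 and 14.3 RPM in wt. The log2 fold change was 0.63 ± 0.68 (limma adjusted p = 0.592) and 0.37 ± 0.18 without the 2 libraries of the opposite order (adjusted p = 0.189). For miR-212-5p the levels were 1.54, 19.5, 2.44 and 1.84 RPM in ob/ob and 9.25, 1.62, 1.60 and 1.66 RPM in wt. The log2 fold change was 0.40 ± 0.79 (adjusted p = 0.802) and 0.18 ± 0.19 without those 2 libraries (adjusted p = 0.483). With both arms summed, miR-212 came to 19.9, 25.2, 23.7 and 22.8 RPM in ob/ob and to 11.1, 15.7, 19.9 and 16.0 RPM in wt. On this sum, which does not depend on the order of the arms, 3 of the 4 ob/ob libraries were above every wt library and ob/ob replicate 1 was level with wt replicate 3. All miRNAs tested had a median log2 fold change of 0.20 at this age as deposited, and wt replicate 1 had the lowest total. The sum was not tested, and how often sums of other hairpins lie this way was not counted. At 9 weeks the same sum was 18.4, 15.9 and 15.2 RPM in ob/ob and 38.2, 19.4, 14.8 and 24.8 RPM in wt, with overlap.

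**Figure D3:**
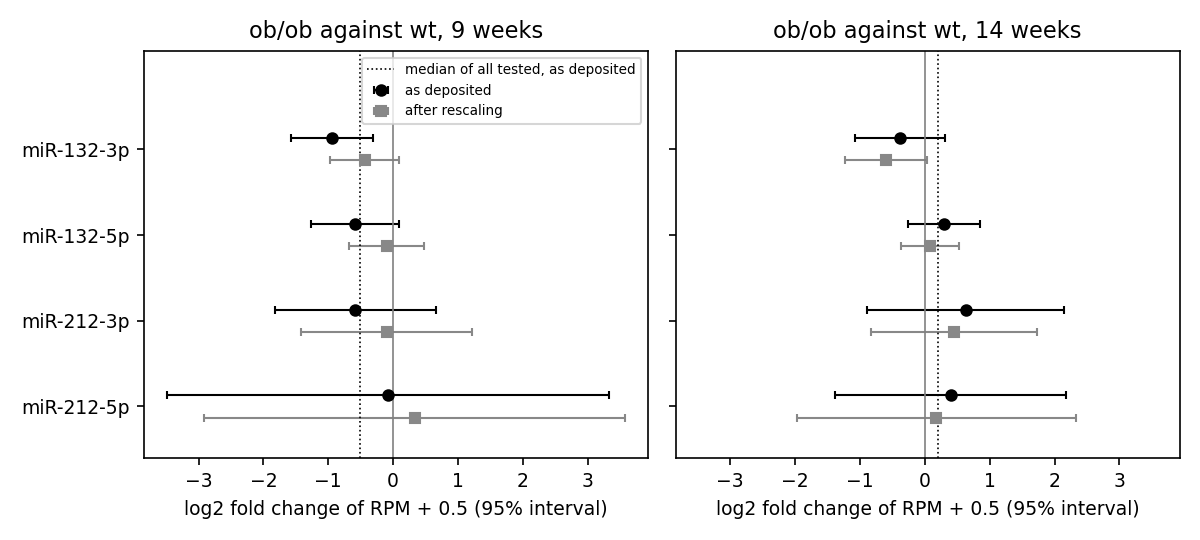
Log2 fold change of each member in ob/ob against wt at 9 and at 14 weeks, with its 95% interval from limma, as deposited (circles) and after median-ratio rescaling (squares); the dotted line is the median of all miRNAs tested as deposited. The interval of miR-132-3p at 9 weeks as deposited, from -1.58 to -0.31, is the only one drawn that leaves out 0.

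The ages were in separate tables, so levels across them are set side by side and were not tested. The mean of miR-132-3p was highest in wt at 9 weeks (183.3 RPM), then wt at 14 weeks (142.9 RPM), ob/ob at 14 weeks (112.9 RPM) and ob/ob at 9 weeks (97.4 RPM), and the ranges of neighbours in this order overlapped. For miR-132-5p the order was wt at 9 weeks (19.7 RPM), ob/ob at 14 weeks (18.6 RPM), wt at 14 weeks (15.3 RPM) and ob/ob at 9 weeks (12.6 RPM), again with overlapping neighbours. Whether the effect of ob/ob differed with age was tested as an interaction of genotype and age. By limma 0 of 187 miRNAs passed (48 had an unadjusted p under 0.05), and after rescaling again 0 of 187 (16 had one), a share of 0% on both scales. For miR-132-5p the interaction was 0.89 ± 0.37 (log2, 14 against 9 weeks, adjusted p = 0.161) as deposited and 0.19 ± 0.30 after rescaling (adjusted p = 0.805). For miR-132-3p it was 0.56 ± 0.42 (adjusted p = 0.381) and turned to -0.16 ± 0.38 after rescaling (adjusted p = 0.851). For miR-212-3p it was 1.21 ± 0.96 (adjusted p = 0.411) with all libraries and 0.68 ± 0.32 without the 4 of the opposite order (adjusted p = 0.394). For miR-212-5p it was 0.48 ± 1.63 (adjusted p = 0.851) and 0.28 ± 0.33 without them (adjusted p = 0.743).

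Plain ratios inside a library do not depend on how the library was scaled. The log2 ratios had 0.5 RPM added to both values, which draws them toward 0 where a value is near 1 RPM. The ratio of the 3p to the 5p arm of miR-132 was lower in ob/ob at 14 weeks. It was 7.84, 3.92, 6.09 and 6.23 in ob/ob replicates 1 to 4, against 9.84, 9.37, 8.62 and 9.95 in wt. Every ob/ob library was below every wt library. The log2 ratio averaged 2.51 ± 0.42 in ob/ob and 3.19 ± 0.09 in wt (SD, n = 4 each), a difference of -0.68. The two-sided exact permutation p was 0.0286, the smallest that 4 against 4 libraries allow, and the adjusted p over the 8 ratios tested was 0.229. A single ratio at that smallest p cannot pass an adjustment over 8 ratios, so the adjusted p cannot decide here. The difference was -0.78 within lane 1 and -0.58 within lane 2.

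Fitted over all 17 hairpins with both arms at 1 RPM or more in every library of 14 weeks, a test added after the values were seen, the difference was -0.68 ± 0.25 (SE, limma adjusted p = 0.0185). By that fit 58.8% of the hairpins were called, and 29.4% had every ob/ob library below every wt library, namely those of miR-132, let-7d, miR-22, miR-30e and miR-340. Calls were thus common among these hairpins, and miR-132 was 1 of 10. The call for miR-132 ended without ob/ob replicate 2 (log2 difference -0.49, adjusted p = 0.0540), without ob/ob replicate 3 (-0.70, adjusted p = 0.0550), or without the 2 libraries of the opposite miR-212 order (-0.47 ± 0.23, adjusted p = 0.0831). ob/ob replicate 2, with the lowest ratio, was also the deepest library, at 98.1 M reads, and the part of depth in the ratio was not tested.

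At 9 weeks the arm ratio of miR-132 was 7.15, 8.71 and 6.90 in ob/ob and 7.82, 9.97, 9.44 and 11.2 in wt. ob/ob replicate 2 lay above wt replicate 1, and the log2 difference of -0.35 did not pass (two-sided exact permutation p = 0.114, adjusted p = 0.305). Over 22 hairpins, of which 27.3% were called by limma at this age, it was -0.35 ± 0.20 (limma adjusted p = 0.184). For the arms of miR-212 the log2 difference was -0.50 at 9 weeks (exact permutation p = 0.629, adjusted p = 0.718). Without the libraries of the opposite order it was -0.22 ± 0.27 by limma. That SE was the same for nearly all hairpins fitted, so it does not measure the spread of miR-212 itself. At 14 weeks the log2 difference for the arms of miR-212 was 0.23 (permutation p = 0.486, adjusted p = 0.718). For miR-132-5p to miR-212-5p it was -0.51 at 9 weeks (permutation p = 0.514, adjusted p = 0.718) and -0.10 at 14 weeks (both 0.857).

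**Figure D4:**
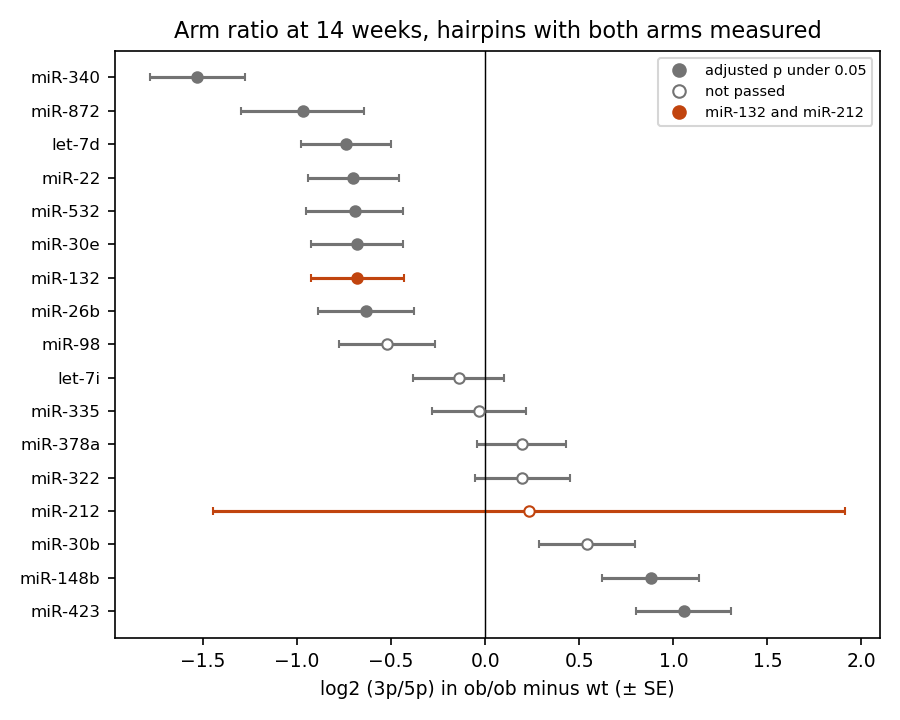
Difference of the log2 ratio of 3p to 5p arm, ob/ob minus wt, at 14 weeks for the 17 hairpins with both arms at 1 RPM or more in every library; bars are the SE from limma, and filled points passed at an adjusted p under 0.05. The value of miR-132 (-0.68 ± 0.25) lies within a run of hairpins with similar differences, and that of miR-212 (0.23 ± 1.68) has the widest bar, against 0.19 ± 0.23 without the 2 libraries of the opposite order.

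The hairpins were also set against each other. With arms summed, the ratio of miR-132 to miR-212 at 14 weeks was 8.63, 3.31, 6.24 and 5.38 in ob/ob, against 10.8, 9.93, 9.79 and 10.1 in wt. The groups did not overlap, but such a separation was common: of the 136 pairs that the 17 hairpins form, 50% had ratios of summed arms that did not overlap between genotypes. Without the 2 libraries of the opposite order the ratio was 5.38 to 8.63 in ob/ob and 9.79 to 10.1 in wt. Groups that do not overlap stay apart when libraries are left out, so this is no further check. The share of pairs without overlap was not counted there. At 9 weeks the ratio was 5.56, 9.47 and 5.07 in ob/ob and 6.73, 11.1, 10.9 and 7.13 in wt, with overlap, also without replicate 1 of each genotype. miR-132 therefore made up 76.8% to 89.6% of the cluster's reads in ob/ob and 90.7% to 91.6% in wt at 14 weeks, and 84.3% to 89.6% and 90.7% to 91.0% without the 2 libraries. These sums were formed after the values were seen and were not tested. The 3p arms alone, which share the seed, gave a log2 ratio of miR-132-3p to miR-212-3p of 2.82 ± 0.49 in ob/ob and 3.84 ± 1.13 in wt at 14 weeks (SD, n = 4 each, two-sided exact permutation p = 0.114, adjusted p = 0.305), a difference of -1.01. Without the libraries of the opposite order that difference was -0.64 (exact permutation p = 0.1, the smallest that 3 against 3 libraries allow), and without wt replicate 1 alone it was -0.45. At 9 weeks the log2 ratio was 3.25 ± 1.08 in ob/ob (n = 3) and 3.61 ± 0.89 in wt (n = 4, exact permutation p = 0.629, adjusted p = 0.718), a difference of -0.36, and without those libraries the difference was -0.49 (exact permutation p = 0.4).

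**Figure D5:**
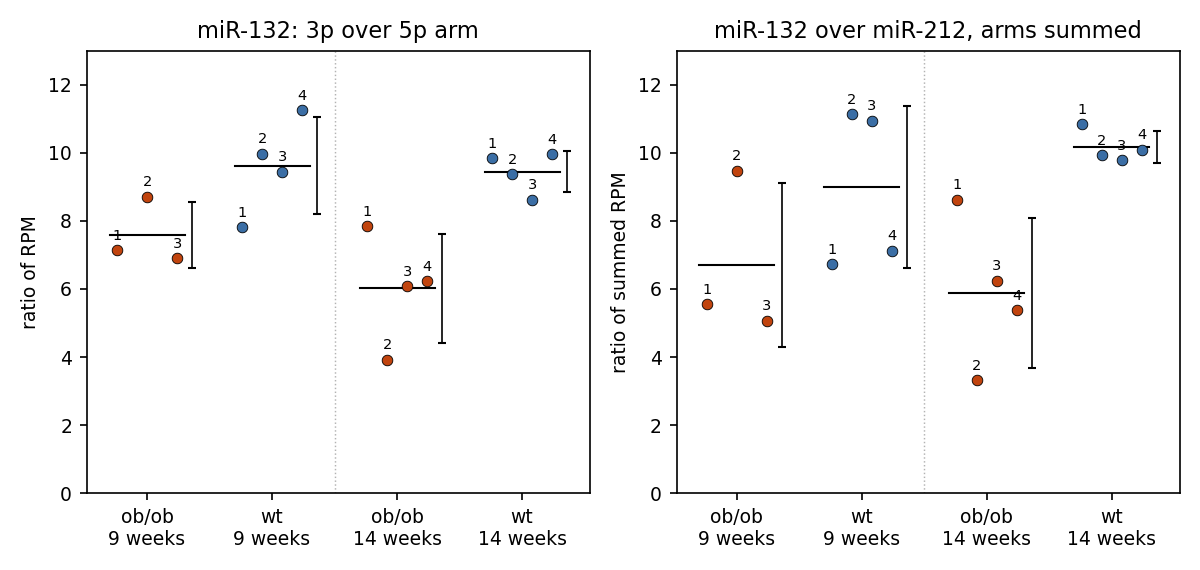
Ratio of the 3p to the 5p arm of miR-132 (left) and of miR-132 to miR-212 with arms summed (right) in each library; lines are means, bars SD and numbers replicates. At 14 weeks the 4 ob/ob libraries lie between 3.92 and 7.84 on the left and the 4 wt libraries between 8.62 and 9.95, and on the right between 3.31 and 8.63 against 9.79 and 10.8.

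Some markers of other cells moved with genotype beside these results. The hepatocyte markers (4 of 4 listed, miR-122-5p, miR-122-3p, miR-192-5p and miR-194-5p) summed to 3966 to 5524 RPM in ob/ob and 1099.9 to 2222 RPM in wt at 9 weeks, and to 3169 to 6899 and 1099 to 1689 RPM at 14 weeks. Most of these sums was miR-192-5p, with means of 4494 against 1556 RPM at 9 weeks and 5212 against 1317 RPM at 14 weeks. Mean miR-122-5p was 166.2 against 46.3 RPM at 9 weeks. At 14 weeks it was 54.9 against 46.7 RPM, with overlap and no call (limma adjusted p = 0.551 as deposited). The erythroid list (1 of 4 listed, miR-144-5p) summed to 14.7 to 21.7 RPM in ob/ob and 0.52 to 1.49 RPM in wt at 9 weeks, and to 11.6 to 32.4 and 0.33 to 0.97 RPM at 14 weeks. The sums for endothelial (2 of 2 listed), stellate and mesenchymal (6 of 7), lymphocyte (2 of 2) and biliary (5 of 5) cells overlapped between genotypes at both ages. Single members did differ. At 9 weeks as deposited miR-126a-3p, miR-199a-3p, miR-214-3p and miR-214-5p were called lower in ob/ob (limma adjusted p = 0.0230, 0.00525, 0.0379 and 0.0202), beside 32.4% of all tested. The myeloid marker miR-511-3p was called lower too (means 77.9 against 159.0 RPM, adjusted p = 0.00984). After rescaling miR-199a-3p was still called (adjusted p = 0.0371). The calls of miR-126a-3p (0.273), miR-214-3p (0.310), miR-214-5p (0.141) and miR-511-3p (0.0860) ended. Mean miR-143-3p was higher at 9 weeks (890.0 against 671.0 RPM) but not called on either scale, and miR-141-3p was called higher after rescaling (adjusted p = 0.0435). At 14 weeks as deposited miR-141-3p was called higher (adjusted p = 0.0495). After rescaling at 14 weeks miR-141-3p (adjusted p = 0.0457) and miR-143-3p (0.0488) were called higher, beside 28.6% of all tested called in either direction. Of all these listed markers 1 was at 0 in every library of a group, miR-375-3p in ob/ob at 14 weeks. The part of other cells, and of the greater depth of ob/ob libraries, in the levels of the cluster was not tested.

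Other miRNAs that respond to macrophage activation were set beside the cluster. Of 11 such miRNAs, chosen with earlier results of these data known, 9 were listed and 7 were tested at each age as deposited. At 9 weeks 1 rose and 2 fell, around a median log2 fold change of -0.01, beside 37.4% called and a median of -0.51 over all miRNAs tested. The rise was that of miR-146b-5p, which dampens NF-kB signalling, by 2.86 ± 0.57 (log2, limma adjusted p = 0.00917). The falls were those of let-7e-5p and miR-125a-5p, neighbours in one cluster, by -1.20 ± 0.22 (adjusted p = 0.00538) and -1.67 ± 0.31 (adjusted p = 0.00543). At 14 weeks 2 rose and none fell, around a median log2 fold change of 0.21, beside 15.2% called and a median of 0.20 over all miRNAs. miR-146b-5p rose by 1.79 ± 0.42 (adjusted p = 0.0175) and miR-155-5p, which is induced by Toll-like receptor signals, by 1.31 ± 0.32 (adjusted p = 0.0201). After rescaling 2 rose and 2 fell at each age, beside 21.5% called over all miRNAs at 9 weeks and 28.6% at 14 weeks, with miR-146a-5p added at 9 weeks (1.92 ± 0.53, adjusted p = 0.0435) and with let-7e-5p (-0.92 ± 0.29, adjusted p = 0.0449) and miR-125a-5p (-1.74 ± 0.37, adjusted p = 0.00794) lower at 14 weeks.

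The miRNAs whose rescaled log2 levels, centred within each age, followed miR-132-3p most closely over the 15 libraries were miR-423-3p (Pearson's r = 0.887), miR-674-3p (0.880), miR-320-3p (0.870), let-7d-5p (0.864) and let-7a-5p (0.860). They were the top 5 of 99 candidates with at least 5 RPM in every library, and the points share depth, rescaling and genotype. Since levels were not centred by genotype, the choice favours miRNAs that are lower in ob/ob, and their fold changes are a description only. As deposited these lay between -1.66 and -0.65 at 9 weeks (log2, all miRNAs tested had a median of -0.51) and between -1.58 and -0.33 at 14 weeks. After rescaling they lay between -1.16 and -0.15 at 9 weeks and between -1.80 and -0.55 at 14 weeks. miR-423-3p, the closest, was at 218.2 ± 85.8 RPM in ob/ob (SD, n = 3) and 555.2 ± 8.94 RPM in wt (n = 4) at 9 weeks, and at 204.8 ± 60.3 and 402.9 ± 79.9 RPM at 14 weeks (n = 4 each). On the same scale miR-132-5p correlated with miR-132-3p at r = 0.517.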

How the data were processed

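Column-purified small RNA went into TruSeq Small RNA libraries for an Illumina HiSeq, per the labels' protocols. Of tools and builds, bcl2fastq, cutadapt, GRCm38.p5 and mm10 appear in the submitters' processing notes. The sources used here do not give how reads were aligned, counted and annotated. The deposited values were taken as RPM made by the authors, a unit inferred from the values. In every library 100% of the values above 0 were whole multiples of 1 step within 0.1, which was read as the worth of 1 read and gave the depth. No count model was used. These reads are not independent molecules. Libraries of 1 group differed by at least 212.7 in chi-square per degree of freedom, so none was a copy of another library. Separate libraries made from the same sample could differ as much, so this check cannot tell whether samples were repeated.

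Values were tested as log2(RPM + 0.5) with limma 3.58.1 in R 4.3.3 (empirical Bayes with trend and robust options) within each age, with Benjamini-Hochberg adjustment over all miRNAs tested and a threshold of 0.05. The filter asked for 1 RPM or more in a number of libraries equal to the smaller group's size. Fold changes are on that log2 scale, which understates changes of rare miRNAs. Log2 ratios, with 0.5 RPM added to both values, were compared with two-sided exact permutation tests, adjusted over 8 ratios. The limma fit of arm ratios over hairpins used the robust option without the trend option. Median-ratio rescaling divided each library by a factor, the median over miRNAs of the value divided by its geometric mean within an age. The members, lists and tests were chosen with earlier results of these data known. Besides the 4 members, the text names miRNAs next in mean level, the 5 most like the most abundant member, and list members past the threshold. The libraries of 9 weeks were run in lane 2, and those of 14 weeks in lane 1 (replicates 1 and 2) or lane 2 (replicates 3 and 4). The scripts were tested on simulated data. Alternatives covered the pseudocount, the filter, scaling, lane, the replicate number as a block and each library left out. Sequences are RefSeq's on GRCm38.p6 and positions are 1-based. All 4 members matched that table.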

Additional observations from a re-analysis of the deposited data

Results flagged for a closer look

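Single libraries stood far from the other 3 of their group, by Dixon's test at 95%, in 9 of 33 checks on groups of 4, where chance gives about 5%. The checks share libraries and members, and all 9 concern miR-212. miR-212-5p was at 19.5 RPM in ob/ob replicate 2 of 14 weeks (others 1.54 to 2.44 RPM), at 31.0 RPM in wt replicate 1 of 9 weeks (others 1.21 to 1.68 RPM) and at 9.25 RPM in wt replicate 1 of 14 weeks (others 1.60 to 1.66 RPM). The log2 ratio of miR-212-3p to miR-212-5p was -1.67 in that ob/ob library of 14 weeks (others 2.89 to 3.20), -2.02 in that wt library of 9 weeks (others 3.04 to 3.44) and -2.04 in that wt library of 14 weeks (others 2.77 to 3.16). The log2 ratio of miR-132-5p to miR-212-5p was -0.19 in the ob/ob library (others 2.86 to 3.28) and 0.25 in the wt library of 14 weeks (others 2.81 to 3.30). The log2 ratio of miR-132-3p to miR-212-3p was 5.53 in the wt library of 14 weeks (others 3.22 to 3.31). With 3 libraries, ob/ob at 9 weeks could not be checked this way, and its replicate 1 had the same opposite order of the arms.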

How the results depend on the processing

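At 9 weeks the count of calls was 38 after rescaling, 32 with the replicate block (the number as a term) and 37 without the libraries of the opposite miR-212 order, against 67. The call of miR-132-3p ended under each (log2 fold change -0.44, -0.998 and -0.81), and over single libraries left out its value ran from -1.21 to -0.71. At 14 weeks the count was 48 after rescaling, 47 with all 15 libraries in one model, 1 in lane 1 and 51 in lane 2, against 26. It ran from 13 (without ob/ob replicate 3; 15 without wt replicate 3) to 46 (without wt replicate 1). Interaction calls were 4 with no filter, 2 with the replicate block and 2 in lane 2 alone, and 0 to 3 with 1 library left out, against 0.

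Same-numbered libraries of the 2 genotypes correlated at -0.24 to 0.28, and not every library correlated best with its own number. So few correlations cannot settle whether the replicate numbers pair the samples, and the main tests treated the libraries as unpaired. Under the replicate block no other member changed its call.

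Directions of uncalled values turned mainly for miR-212. After rescaling, miR-212-5p was at 0.33 at 9 weeks, and the interactions of miR-132-3p and miR-212-5p were at -0.16 and -0.16. With 1 library left out, miR-212-5p ran from -1.11 to 0.94 at 9 weeks, from -0.37 to 0.95 at 14 weeks and from -0.54 to 1.51 in the interaction, and miR-212-3p from -0.90 to -0.0027 at 9 weeks and from -0.059 to 1.06 at 14 weeks. The log2 ratio of the miR-212 arms ran from -1.83 to 1.11 at 9 weeks and from -1.005 to 1.42 at 14 weeks. That of miR-132-5p to miR-212-5p ran from -1.33 to 0.51 and from -0.79 to 0.70, and was 0.0149 at 14 weeks without the libraries of the opposite order. That of miR-132-3p to miR-212-3p ran from -0.92 to 0.16 at 9 weeks and from -1.22 to -0.45 at 14 weeks. The arm ratio of miR-132 at 14 weeks passed only by limma over all hairpins (-0.68). The causes were not tested, and the fits with libraries left out also had fewer libraries. Values of miR-212-5p near 1 RPM rest on few reads.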
